A study of Mus musculus with 3 samples.

Results

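Vimentin, nestin, the neurofilaments and the lamins are the intermediate filament proteins considered here, and their 9 genes (Vim, Nes, Nefl, Nefm, Nefh, Ina, Lmna, Lmnb1 and Lmnb2) were chosen by name from the 39179 genes of the deposited table. All 9 had reads in every library, and all 9 averaged 50 normalised counts or more across the libraries, a level reached by 12896 genes. RNA-seq was performed on E14tg2a cells, an embryonic stem cell (ESC) line from mouse, cultured in serum plus LIF, a cytokine that keeps these cells undifferentiated. The study altered Zmym2 (also called Zfp198), which encodes a zinc finger protein, and there was 1 library per condition: cells with a stably integrated Zmym2 transgene (OE), a line with frameshift mutations in both Zmym2 alleles (KO) and unmodified cells (WT). By the study's methods, transgenes were delivered by PiggyBac transposition with drug selection, and knockout lines grew from single sorted cells, so KO is 1 clone. No library of cells with an empty vector was used here, so selection or cloning and the altered Zmym2 level cannot be told apart. The written line descriptions of the OE and KO samples are exchanged relative to their titles, and the titles were followed.

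Zmym2 itself had 57139 normalised counts in OE and 4370 in KO, against 7956 in WT, so the highest level was in the library titled OE. Values are read counts divided by a size factor for each library. The libraries held 41840774 reads over genes in OE, 46995766 in KO and 50120551 in WT. With 1 library per condition no difference has a replicate check, no p-value is given, and the 95% intervals cover counting error only. Markers of ESCs were present in all 3 libraries: Pou5f1, which encodes OCT4, had 31522 normalised counts in OE, 34070 in KO and 36973 in WT, and Sall4 had 21509, 31768 and 32019 in the same order. Of 12 ESC markers, 0 were 2-fold apart from WT in either line, but 11 were below WT in OE (median log2 ratio -0.48) and 10 in KO (median -0.11). Over all 12896 genes, 9.74% were 2-fold higher and 3.12% lower in OE, and 2.43% and 3.09% in KO. At any size of difference, 47.8% of the 12896 genes were above WT in OE and 44.7% in KO.

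Intermediate filaments are ropes of coiled-coil proteins, and the member a cell uses is a classic marker of its identity. Vimentin builds the cytoplasmic filaments of mesenchymal cells and of many cultured cells, and nestin, best known from neural progenitors, assembles together with vimentin. The neurofilament light, medium and heavy chains (Nefl, Nefm, Nefh) and alpha-internexin (Ina) form the filaments of axons. The lamins form the meshwork under the nuclear envelope: Lmnb1 and Lmnb2 encode the B-type lamins, present in nearly all cells, and Lmna encodes lamins A and C, which are scarce in pluripotent cells and accumulate with differentiation.

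Promoter windows of Vim, Nes and Lmna, which were higher in OE, and of Ina, which was lower, were taken from the RefSeq table (build GRCm38.p6; 250 bases before and 50 after the start site, read along the gene). They are shown because the members are compared by their direction below. Windows were matched for 5 of the 9 genes. None was matched for Nefl and Nefm, which were also higher in OE, or for Nefh and Lmnb1, which were lower. Capitals mark matches, on either strand, to TATAAA (the TATA box), GGGCGG (the GC box), CCAAT and TGANTCA (the AP-1 motif). CACGTG was also searched.
Vim, chr2:13574061-13574360, plus strand: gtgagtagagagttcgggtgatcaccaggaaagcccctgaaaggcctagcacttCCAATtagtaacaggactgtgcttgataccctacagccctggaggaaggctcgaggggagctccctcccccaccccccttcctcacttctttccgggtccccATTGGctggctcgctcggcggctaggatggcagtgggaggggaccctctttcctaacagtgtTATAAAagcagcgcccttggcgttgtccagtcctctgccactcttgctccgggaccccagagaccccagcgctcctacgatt
Nes, chr3:87970843-87971142, plus strand: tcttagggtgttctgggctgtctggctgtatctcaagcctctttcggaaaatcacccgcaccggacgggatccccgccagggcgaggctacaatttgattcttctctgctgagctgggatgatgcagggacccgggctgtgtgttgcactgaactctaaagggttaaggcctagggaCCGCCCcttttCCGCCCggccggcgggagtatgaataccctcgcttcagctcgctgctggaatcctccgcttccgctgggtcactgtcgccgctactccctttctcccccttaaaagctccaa
Lmna, chr3:88503303-88503602, minus strand: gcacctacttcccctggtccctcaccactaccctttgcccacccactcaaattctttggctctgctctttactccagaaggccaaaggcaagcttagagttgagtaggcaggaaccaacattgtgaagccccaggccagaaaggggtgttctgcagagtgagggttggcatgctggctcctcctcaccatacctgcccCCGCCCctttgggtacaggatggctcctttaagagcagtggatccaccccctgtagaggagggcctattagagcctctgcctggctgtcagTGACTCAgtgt
Ina, chr19:47014431-47014730, plus strand: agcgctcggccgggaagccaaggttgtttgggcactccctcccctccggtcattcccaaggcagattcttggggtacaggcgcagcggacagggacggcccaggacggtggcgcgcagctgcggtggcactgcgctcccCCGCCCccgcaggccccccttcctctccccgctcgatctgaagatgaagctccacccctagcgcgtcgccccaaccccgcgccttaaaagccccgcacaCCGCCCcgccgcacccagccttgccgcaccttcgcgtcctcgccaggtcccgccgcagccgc
The Vim window held TATAAA, starting 32 bases before the start site, and CCAAT in 2 places. The Nes window held GGGCGG in 2 places, as did the Ina window. The Lmna window held 1 GGGCGG and, after the start site, 1 TGANTCA. Of 32851 promoters of the same length, 13.6% held TATAAA, 35.7% GGGCGG, 37.4% CCAAT and 7.81% TGANTCA. None of these motifs was in all 3 windows shown for Vim, Nes and Lmna, and the higher genes Nefl and Nefm could not be examined. The GC content was 59.3% for Vim, 58.7% for Nes, 56.3% for Lmna and 71.7% for Ina, against a median of 52.7% over all promoters. A match describes the letters and not a bound factor. A second Lmna window and 2 windows of Lmnb2, which was also lower in OE, are not shown.

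The OE library held more transcript of vimentin, nestin, the light and medium neurofilament chains and lamin A/C than the WT library, and less of the heavy chain, alpha-internexin and the B-type lamins. In OE, 5 of the 9 genes exceeded WT at least 2-fold, where 9.74% of the 12896 genes were, and 0 were at least 2-fold lower, where 3.12% were. In KO, 0 of the 9 were 2-fold higher (2.43% of all genes) and 0 were 2-fold lower (3.09%). The median log2 ratio of the 9 genes was 1.12 in OE and -0.27 in KO, beside -0.02 and -0.03 over all 12896 genes. The OE median is Lmna's own value, and the genes fell on both sides of it: 5 lay above WT and 4 below. Of all 12896 genes, 47.8% lay above WT in OE. Without Nefl and Nefm, which adjoin each other on chromosome 14, the OE median was -0.20, with 3 of 7 genes 2-fold higher.

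**Figure D1:**
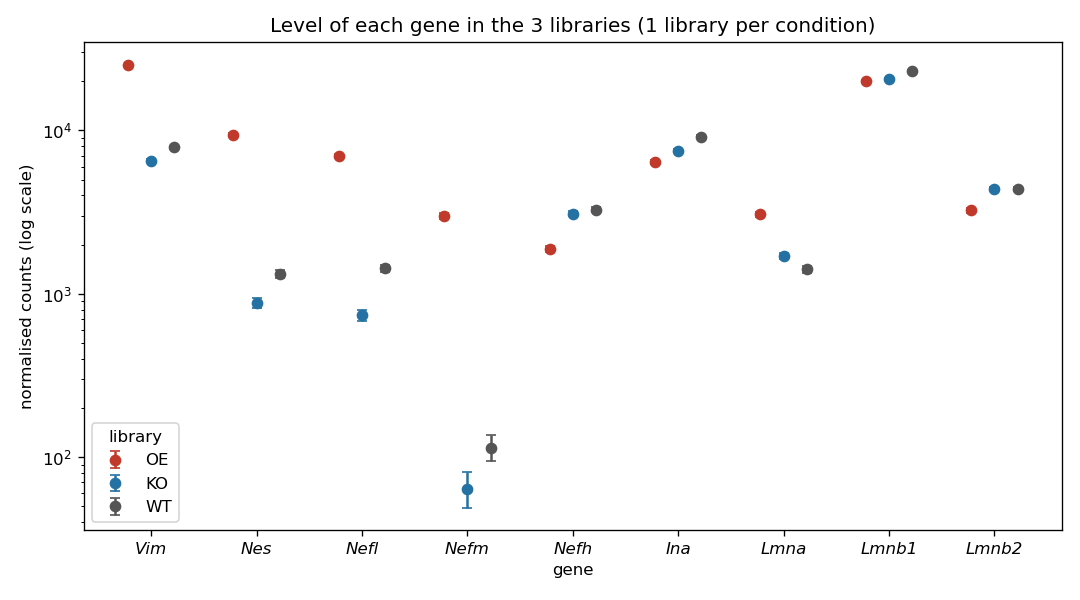
Normalised counts (log axis) of the 9 genes in the OE (red), KO (blue) and WT (grey) libraries. Points are single libraries and bars are exact 95% Poisson intervals of the reads. OE is the highest library for Vim, Nes, Nefl, Nefm and Lmna, and the lowest for Nefh, Ina, Lmnb1 and Lmnb2.

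Of the 9 genes, Vim had the largest excess of normalised counts in OE over WT. Vim (ENSMUSG00000026728, chr2:13573927-13582826) had 24955 normalised counts in OE (interval 24631 to 25282) and 6535 in KO (6377 to 6696), against 7895 in WT (7727 to 8067). The OE library stood above both others, with a ratio to WT of 3.16 (3.08 to 3.24), and the KO library was slightly below WT, with a ratio of 0.828 (0.801 to 0.855). Only 651 of the 12896 genes (5.05%) had a larger OE ratio. Around it on chromosome 2, 21 other genes that averaged 200 normalised counts or more lay within 5 Mb on either side, with median ratios of 1.09 in OE and 1.03 in KO, and 3 of them had a larger OE ratio than Vim.

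Nestin differed more from WT than vimentin did, in both lines. Nes (ENSMUSG00000004891, chr3:87971078-87980451) had 9400 normalised counts in OE (9201 to 9601) and 879 in KO (821 to 939), against 1326 in WT (1257 to 1397). The OE ratio was 7.09 (6.70 to 7.51), exceeded by 190 genes (1.47%), and the KO ratio was 0.663 (0.608 to 0.722). Among 91 genes within 5 Mb, with a median OE ratio of 1.02, none had a larger OE ratio than Nes and only 1 had a smaller KO ratio. The nearest measured genes did not share its values: Crabp2, for a retinoic acid-binding protein, had ratios of 1.21 in OE and 1.42 in KO, and Isg20l2, for an exonuclease, had 0.908 and 1.001. Per kilobase of exon, nestin transcript stood at 0.278 of vimentin's in OE (0.272 to 0.285) and 0.0994 in KO (0.0925 to 0.107), against 0.124 in WT (0.117 to 0.131).

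The neurofilament genes did not move as a set. The light and medium chains, which lie side by side on chromosome 14, were far higher in OE, while the heavy chain on chromosome 11 and alpha-internexin on chromosome 19 were lower. Nefl (ENSMUSG00000022055, chr14:68083863-68089095, plus strand) had 6966 normalised counts in OE (6796 to 7140) and 738 in KO (686 to 794), against 1431 in WT (1359 to 1504). Its ratio was 4.87 in OE (4.60 to 5.15) and 0.516 in KO (0.472 to 0.564). With libraries scaled to a list of housekeeping genes or to Gapdh, the KO value of Nefl crossed the 2-fold line (lowest log2 ratio -1.04).

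Nefm was the member with the largest OE ratio. Nefm (ENSMUSG00000022054, chr14:68082590-68124846, minus strand) had 2997 normalised counts in OE (2885 to 3111) and 63.6 in KO (48.9 to 81.4), against 114 in WT (94.9 to 137). These rest on 2723 reads in OE, 63 in KO and 121 in WT. The OE ratio was 26.2 (21.8 to 31.7), and only 10 of the 12896 genes had a larger one. The KO ratio was 0.557 (0.404 to 0.761), the widest KO interval of the 9 genes relative to its value.

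The gene models of Nefl and Nefm overlap on opposite strands in GENCODE M21, where 1 of the 2 annotated Nefm transcripts is long and spans Nefl, and 1108 exonic bases are shared (32.8% of Nefl's exons and 19.2% of Nefm's). The study counted reads by strand, and how many reads fell on the shared bases cannot be read from counts per gene. The ratio of Nefl to Nefm per kilobase was 3.98 in OE (3.80 to 4.16) and 19.8 in KO (15.3 to 26.1), against 21.4 in WT (17.8 to 26.0), so the intervals of KO and WT overlapped and that of OE lay apart.

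**Figure D2:**
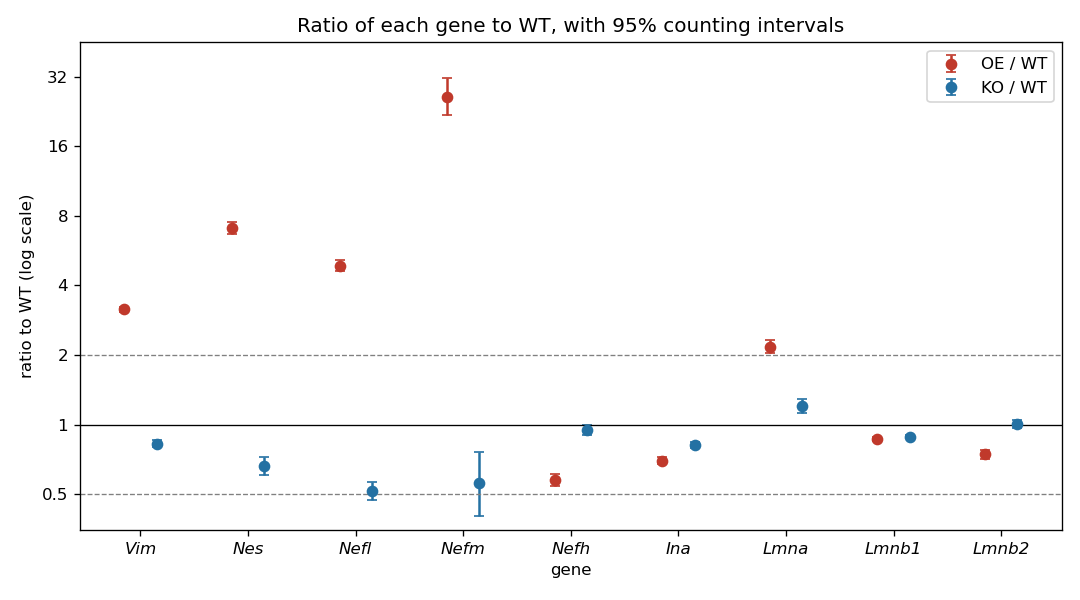
Ratio to WT (log axis) of the 9 genes in OE (red) and KO (blue), with exact 95% intervals that cover counting error only. Dashed lines mark 2-fold. The OE ratio of Nefm is 26.2, 5 genes lie above the upper line in OE, and in KO no gene lies beyond either line.

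The KO ratios of Nefl and Nefm were close to those of the genes around them. Both lie 11.1 Mb from Zmym2, in a stretch of chromosome 14 from 50 to 80 Mb in which 179 of 182 genes (averaging 200 normalised counts or more, without Zmym2, Nefl and Nefm) were below WT in KO, with a median ratio of 0.567 (quartiles 0.501 and 0.630). The rest of the chromosome had a median of 0.974 over 182 genes. Divided by the median of the stretch, the KO ratio was 0.910 for Nefl (0.832 to 0.995) and 0.981 for Nefm (0.712 to 1.34). In the order of the stretch, 54 genes had a smaller KO ratio than Nefl and 78 a smaller one than Nefm. Lower values of these 2 genes in KO therefore cannot be told apart from the shared lower values of their stretch. In OE the stretch had a median of 1.09, and Nefl exceeded it 4.49 times (4.24 to 4.75) and Nefm 24.2 times (20.1 to 29.2). None of the 182 genes had a larger OE ratio than Nefm, and 6 had a larger one than Nefl. The measured neighbour Dock5 had ratios of 1.10 in OE and 0.419 in KO.

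**Figure D3:**
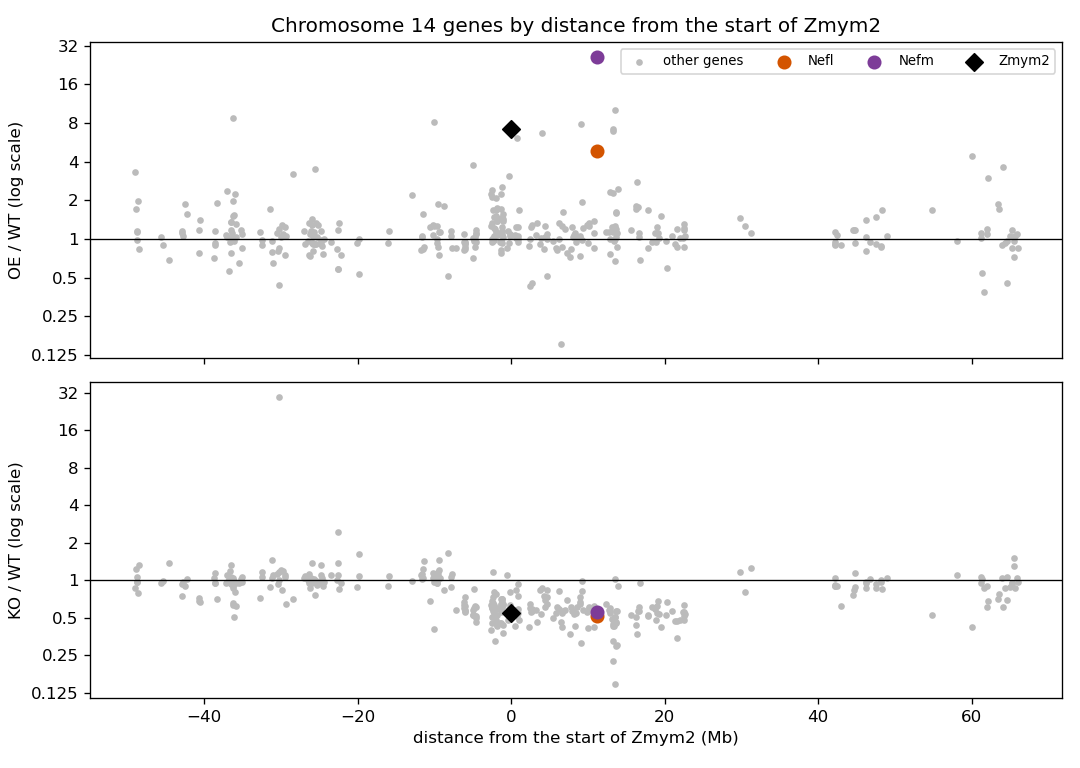
Ratios to WT (log axis) of chromosome 14 genes in OE (top) and KO (bottom) by distance from the start of Zmym2 in Mb. Grey points are genes averaging 200 normalised counts or more. In KO, Nefl, Nefm and Zmym2 lie within the band of lower ratios around them (median 0.567), and in OE they stand above most other genes.

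The heavy chain and alpha-internexin had the opposite order in OE. Nefh (ENSMUSG00000020396, chr11:4938754-4948064) had 1882 normalised counts in OE (1794 to 1973) and 3098 in KO (2990 to 3210), against 3277 in WT (3169 to 3388), with ratios of 0.574 in OE (0.542 to 0.609) and 0.945 in KO (0.900 to 0.993). Among 62 genes within 5 Mb of Nefh, with a median OE ratio of 0.931, 3 had a smaller one. Ina (ENSMUSG00000034336, chr19:47014698-47025327) had 6397 normalised counts in OE (6234 to 6564) and 7502 in KO (7332 to 7674), against 9153 in WT (8972 to 9337). It was below WT in both lines, at 0.699 in OE (0.676 to 0.722) and 0.820 in KO (0.795 to 0.845). Ina overlaps Nt5c2, for a nucleotidase, on the opposite strand, which had 1853, 2301 and 2207 normalised counts in OE, KO and WT.

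These opposite differences altered the mix of neuronal filament transcripts. Per kilobase of exon, the sum of the 4 genes was 5025 normalised counts in OE and 3321 in KO, against 4088 in WT. Alpha-internexin made up 39.3% of the sum in OE and 69.7% in KO, against 69.1% in WT. The light chain made up 41.0% in OE and 6.58% in KO, against 10.4% in WT. The medium chain made up 10.3% in OE and 0.331% in KO, against 0.484% in WT, and the heavy chain made up 9.38%, 23.4% and 20.1% in the same order. In OE, Ina and Nefl were close, at 1975 and 2061 per kilobase (Ina over Nefl 0.958, 0.924 to 0.993), whereas in WT Ina was the higher by 6.67 times (6.32 to 7.05). In WT the order per kilobase was Ina, Nefh, Nefl and Nefm, and KO had that order too, while OE had Nefl, Ina, Nefm and Nefh. With the length of the principal transcript only, Nefm made up 16.6% in OE, 0.573% in KO and 0.836% in WT, and the order within each library was the same.

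**Figure D4:**
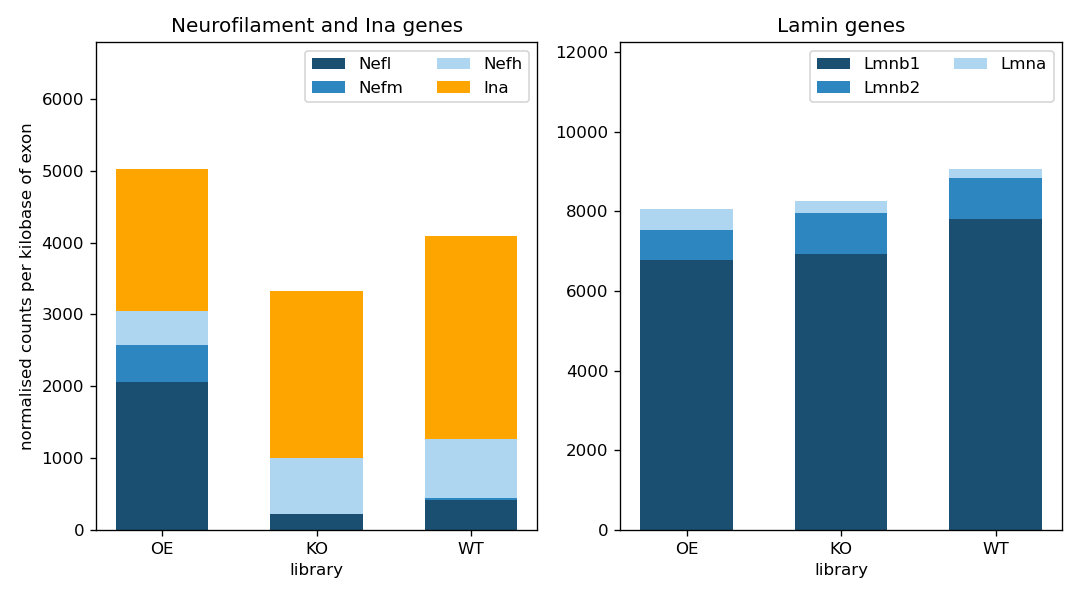
Normalised counts per kilobase of exon of the neurofilament and Ina genes (left) and of the lamin genes (right), stacked, in OE, KO and WT, 1 library each. The Nefl and Nefm portions are larger in OE and the Ina and Nefh portions smaller, and Lmnb1 takes 84.1% of the lamin sum in OE and in KO and 86.1% in WT.

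Over the 6 cytoplasmic genes together, the sum per kilobase was 11752 normalised counts in OE and 4835 in KO, against 5960 in WT, or 1.97 times WT in OE and 0.811 times in KO. Vimentin was the leading transcript in OE (44.8%), and alpha-internexin led in KO (47.9%) and in WT (47.4%). That order depended on the lengths used: with principal transcripts, Vim led in all 3 libraries, at 62.1% in OE, 46.2% in KO and 45.5% in WT.

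Among the lamins, lamin A/C was higher in OE while both B-type genes were lower. Lmna (ENSMUSG00000028063, chr3:88480147-88509956) had 3064 normalised counts in OE (2951 to 3180) and 1702 in KO (1622 to 1785), against 1408 in WT (1337 to 1481). Its ratio was 2.18 in OE (2.04 to 2.32), near the 2-fold line, and 1.21 in KO (1.13 to 1.30), so Lmna was above WT in both lines. Counts per gene do not separate lamin A from lamin C. Lmna lies 499.7 kb from Nes, and 2 of the 91 genes within 5 Mb had a larger OE ratio. Of its nearest measured neighbours, Sema4a, for a semaphorin, had ratios of 0.618 in OE and 0.852 in KO, and Rab25, for a small GTPase, had 1.51 and 0.831. Mex3a had 0.905 and 0.887, and Slc25a44 had 1.09 and 0.888.

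Lmnb1 was the most abundant lamin transcript per kilobase in all 3 libraries and the member closest to WT in OE. Lmnb1 (ENSMUSG00000024590, chr18:56707813-56753424) had 20084 normalised counts in OE (19793 to 20377) and 20549 in KO (20268 to 20834), against 23136 in WT (22848 to 23428), with ratios of 0.868 in OE (0.852 to 0.885) and 0.888 in KO (0.872 to 0.905). Lmnb2 (ENSMUSG00000062075, chr10:80901203-80918245) had 3238 normalised counts in OE (3122 to 3357) and 4379 in KO (4250 to 4512), against 4352 in WT (4227 to 4480). Its OE ratio was 0.744 (0.710 to 0.779). The KO ratio of 1.01 (0.965 to 1.05) did not differ from 1 beyond counting error, and its sign turned with the scaling (log2 ratio -0.08 to 0.02). The lamin sum per kilobase was 0.889 times WT in OE and 0.910 times in KO. Lmna took 6.51% of it in OE and 3.53% in KO, against 2.66% in WT, and Lmnb1 exceeded Lmna 12.9 times in OE (12.4 to 13.5) and 23.8 times in KO (22.6 to 25.02), against 32.4 times in WT (30.7 to 34.2). With principal transcripts, the Lmna share was 10.8%, 5.95% and 4.52% in OE, KO and WT, and in OE it then slightly exceeded that of Lmnb2 (10.7%).

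Genes that work with these filaments were examined as lists, of which the counts and medians are descriptions. Of 9 other intermediate filament genes, a list without the keratins, 5 were measured (averaging 50 normalised counts or more). All 5 were above WT in OE (median log2 ratio 0.63), and 4 were below WT in KO (median -0.27). Of all 12896 genes, 47.8% were above WT in OE and 44.7% in KO. Synm, which encodes synemin, a partner of vimentin and desmin, was the only one at least 2-fold higher in OE, beside 9.74% of all genes. It had 595 normalised counts in OE and 196 in KO, against 237 in WT, or 2.51 times WT in OE (2.16 to 2.93).

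The cytolinkers, proteins that tie filaments to junctions and to other filaments, were higher in OE for 4 of 6 measured genes at the 2-fold line (median log2 ratio 1.07), and 0 of 6 were 2-fold apart in KO (median -0.33). Over all 12896 genes, 9.74% were 2-fold higher in OE, and 2.43% were higher and 3.09% lower in KO. Dsp, for desmoplakin, which anchors filaments to desmosomes, had 15058 normalised counts in OE and 1615 in KO, against 2045 in WT, a ratio of 7.36 in OE (7.04 to 7.71). Ppl, for periplakin, had 2493 in OE and 247 in KO, against 383 in WT, a ratio of 6.51 in OE (5.86 to 7.26). Plec, for plectin, which binds vimentin, had a ratio of 2.16 in OE (2.10 to 2.23), and Evpl, for envoplakin, 2.04 (1.69 to 2.46). Desmoplakin, periplakin and envoplakin are best known from epithelia, where their filament partners are mostly keratins.

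Partners of the lamina lay on both sides of WT in OE. The 14 symbols of inner nuclear membrane and linker proteins had 15 measured identifiers, since Syne1, for nesprin-1, has 2, and in OE 1 was 2-fold higher, beside 9.74% of all genes, and 0 were lower. In OE 7 were above WT, beside 47.8% of all genes, and 8 below. The median log2 ratio was -0.03, and the values ran from 0.621 to 3.77 times WT, both of them Syne1. That was 1 of the Syne1 identifiers, with 164 normalised counts in OE and 34.3 in KO, against 43.5 in WT, while the other had 44.0 in OE and 80.8 in KO, against 70.9 in WT. In KO 0 of 15 were 2-fold apart (median 0.00). The 5 genes that process lamin precursors had 0 members 2-fold apart in either line (median -0.06 in OE and -0.01 in KO). Over all genes, 3.12% were 2-fold lower in OE, and 2.43% were higher and 3.09% lower in KO. Fntb, for a subunit of the farnesyltransferase, had 3363 normalised counts in OE and 4431 in KO, against 3514 in WT, and Icmt, for the methyltransferase of the pathway, had 2688 in OE and 3627 in KO, against 3378 in WT. Zmpste24, for the protease that matures prelamin A, was named after its values were seen: it had 3042 normalised counts in OE and 2051 in KO, against 2066 in WT.

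Markers of cell types that use these filaments moved in different directions. Of 10 measured neuronal markers of 12, 2 were 2-fold higher and 0 lower in OE (median log2 ratio -0.19), and 0 were higher and 2 lower in KO (median -0.16). Over all 12896 genes these shares were 9.74% and 3.12% in OE, and 2.43% and 3.09% in KO. Syt1, for synaptotagmin 1, had 330 normalised counts in OE and 14.1 in KO, against 47.2 in WT. Gap43, for a growth cone protein, had 1321 in OE and 155 in KO, against 309 in WT. Map2, for a dendritic microtubule protein, had 1342 in OE and 412 in KO, against 1051 in WT. In OE 4 of the 10 lay above WT, beside 47.8% of all genes, and 6 below. Among the 6 were Elavl3, for an RNA-binding protein, at 0.525 of WT, Tubb3, for a neuronal tubulin, at 0.537, and Mapt, for tau, at 0.599. The summed level of the 12 genes was 21539 in OE and 16417 in KO, against 18141 in WT, and 0 of 12 were at 0 in any library. Stmn2, for a microtubule regulator, had 13390 in OE and 8225 in KO, against 8537 in WT, and without it the sum was lower in OE than in WT (8148 in OE and 8192 in KO, against 9604 in WT).

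Of 10 neural progenitor markers other than nestin, 5 were measured, with 1 higher and 2 lower by 2-fold in OE (median -0.54). Of those with too low a mean to count, Pax3 (62.7 in OE, 2.83 in WT), Sox9 (47.3 and 9.45) and Zic1 (36.3 and 16.1) were above WT in OE. Hes5 and Fabp7 were below WT there. In KO all 5 measured markers were below WT, with 0 higher and 1 lower by 2-fold (median -0.33). Over all 12896 genes the 2-fold shares were 9.74% higher and 3.12% lower in OE, and 2.43% and 3.09% in KO. At any size of difference, 44.7% of all genes were above WT in KO. Prom1, for prominin 1, had 1831 normalised counts in OE and 365 in KO, against 457 in WT. The transcription factors Pax6 and Sox1 were 2-fold lower in OE, and Sox1 was in KO too. Pax6 had 605 in OE and 1399 in KO, against 1726 in WT, and Sox1 had 207 in OE and 193 in KO, against 508 in WT. The sum was 4159 in OE and 3227 in KO, against 4405 in WT (without Pax6, 3554, 1827 and 2679). Fabp7 was at 0 reads in OE and in KO, and at only 2.83 normalised counts in WT, the value of 3 reads there. Of 7 glial markers 3 were measured and 1 was 2-fold higher in OE, beside 9.74% of all genes. That was Mbp, for myelin basic protein, with 595 in OE and 124 in KO, against 158 in WT. The glial sum was 2209 in OE and 1606 in KO, against 1953 in WT (without Slc1a3, 774, 346 and 354), and S100b was at 0 in all 3 libraries.

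Mesenchymal and fibroblast markers had the medians farthest from 0 among the lists. Of 15 measured genes of 20, 10 were 2-fold higher and 1 lower in OE (median log2 ratio 1.38), and 1 was higher and 5 lower in KO (median -0.40). Over all 12896 genes these shares were 9.74% and 3.12% in OE, and 2.43% and 3.09% in KO. Tagln, for transgelin, a smooth muscle protein, had 11495 normalised counts in OE and 105 in KO, against 929 in WT. Acta2, for smooth muscle actin, had 4408 in OE and 51.5 in KO, against 712 in WT. Col3a1, for a fibrillar collagen, had 992 in OE and 77.5 in WT, and 0 reads in KO. A count of 0 was taken to allow up to 3 reads, or 3.03 normalised counts in KO. Dcn, for the proteoglycan decorin, had 133 in OE and 22.2 in KO, against 5.67 in WT. Its KO and WT levels were below 50, so Dcn counted as measured only through its OE level. It was also the 1 marker counted as higher in KO. The 1 marker 2-fold lower in OE was Zeb1, with 358 in OE and 923 in KO, against 803 in WT (0.445 of WT in OE). In KO 5 of the 15 were above WT: Dcn, Thy1 (1.61 times WT), Twist1 (1.31), Zeb1 (1.15) and Snai2 (1.14). The summed level of the 20 genes was 92443 in OE and 51403 in KO, against 58973 in WT, and 0 of 20 were at 0 in OE, 2 in KO and 1 in WT. Most of each sum was Fn1, for fibronectin, with 65461 in OE and 48567 in KO, against 53396 in WT. Without Fn1 the sum was 26982 in OE and 2836 in KO, against 5577 in WT, or 4.84 times WT in OE and 0.508 times in KO. In OE 14 of the 15 measured markers were above WT, as were Vim, Nes, Nefl, Nefm and Lmna. In KO 10 of the 15 were below WT, as were the first 4 of these genes but not Lmna. Of all 12896 genes, 47.8% were above WT in OE and 44.7% in KO. For Nefl and Nefm, the lower KO values cannot be told apart from those of their chromosome 14 stretch (median ratio 0.567). The part of the markers in the result was not tested. In bulk RNA, more cells of a type and more RNA per cell cannot be told apart.

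**Figure D5:**
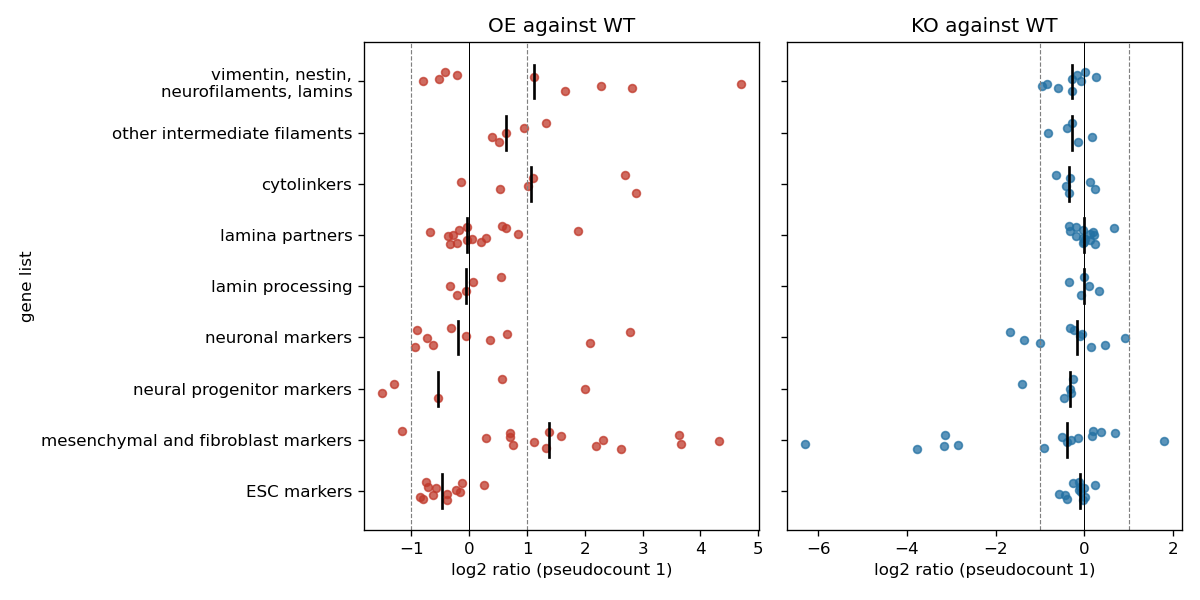
Log2 ratios to WT (pseudocount 1) in OE (left) and KO (right) of the 9 genes and of the measured genes of 8 lists. Points are genes, black bars are medians and dashed lines mark 2-fold. In OE the cytolinkers (median 1.07) and the mesenchymal markers (1.38) lie to the right, and the lamina partners (-0.03) and neuronal markers (-0.19) spread to both sides of 0.

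The genes most like each member were sought among the 10033 protein-coding genes averaging 200 normalised counts or more (without predicted genes), by distance in the plane of the log2 OE and KO ratios, which share the WT library. Nefm had the fewest genes nearby, 2 within a distance of 0.25, and its nearest were Piezo2, for a mechanosensitive channel, with ratios of 29.0 in OE and 0.483 in KO, Rgs17, with 25.4 and 0.462, and Gbp2, with 20.5 and 0.623. Nes had 18 such genes, led by Fst, for follistatin (7.17 and 0.653), Cysltr1 and the TGF-beta receptor gene Tgfbr2 (7.24 and 0.631). Nefl had 19, led by Hand1, for a mesoderm transcription factor (4.93 and 0.512), Zyx, for zyxin, and Cyp1b1. The KO ratios that place Nefm and Nefl were close to the median of their chromosome 14 stretch (0.567). Vim had 72, led by Plxdc2, Tpm2, for a tropomyosin (3.08 and 0.811), and Tuft1. Lmna had 49, led by Pstpip1, Ap1s2 and Srgap1. The members less than 2-fold from WT in OE had more: 201 for Nefh (nearest Cds1, Mical1 and Tango6), 496 for Ina (Fgf15, Zcchc14 and Aven), 1472 for Lmnb2 (Csnk2a1, Rbm19 and Ranbp17) and 2583 for Lmnb1 (Tctex1d2, Ivns1abp and Nme7). Such counts largely follow how far each member's own ratios lie from WT, and are not a separate result.

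Compared directly, without the WT library, OE exceeded KO 47.1 times for Nefm (36.7 to 61.5), 10.7 times for Nes (9.97 to 11.5), 9.43 times for Nefl (8.74 to 10.2), 3.82 times for Vim (3.71 to 3.93) and 1.80 times for Lmna (1.69 to 1.91). Nefm and Nefl lie in the chromosome 14 stretch with a median KO ratio to WT of 0.567, and their values here include that shared difference. The OE level was 0.607 of the KO level for Nefh (0.572 to 0.645), 0.739 for Lmnb2 (0.705 to 0.775), 0.853 for Ina (0.824 to 0.883) and 0.977 for Lmnb1 (0.958 to 0.997).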

How the data were processed

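Values of 3 mouse ESC libraries, 1 each of OE, KO and WT, were analysed. Per the labels and methods, the authors depleted ribosomal RNA, made directional libraries, trimmed reads (Trim Galore), aligned them to GRCm38 (TopHat2), counted them by strand per gene (featureCounts) and normalised with DESeq2. The deposited signal values are gene counts divided by size factors. A further division by length is described, but 100% of values were whole multiples of 1 read (tolerance 1e-06), so none was in them. The value of 1 read was 1.10 in OE, 1.01 in KO and 0.945 in WT, and 3 reads is the limit a count of 0 allows. A deposited table of 20 genes and another of repeats held 7 columns of levels, none of a gene considered here, and they and the ratios beside them were not used.

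Levels have exact Poisson intervals and ratios exact binomial (Clopper-Pearson) ones, at 95%. The libraries carried no molecular identifiers, so PCR copies are counted too and these cover counting error only. With 1 library per condition no count test was run. Log2 ratios used a pseudocount of 1, and 2-fold counts over all genes used the 12896 that averaged 50 normalised counts or more. Positions and merged exon lengths came from GENCODE M21 (GRCm38), which held 96.0% of identifiers and 99.2% of those counted. The chosen members and lists, and the tests, were set with earlier results of these data known. Named in the text were all members, Zmym2, up to 4 genes of each list that were 2-fold apart and reached 100 normalised counts in the library where they were higher (the 2 highest where none was), the 3 nearest genes of each member, and neighbours of members that share a locus, of which some are not reported here. Others named are Nt5c2, Zmpste24, Elavl3, Tubb3, Mapt, Stmn2, Fn1, Slc1a3, Fabp7, S100b, Zeb1, Thy1, Twist1, Snai2, Pax3, Sox9, Zic1 and Hes5, chosen after their values were seen. Alternatives were scaling to total reads, housekeeping genes, Gapdh or TMM factors, pseudocounts of 0.5 and 10, folds of 1.5 and 3, level minimums of 10, 200 and none, and, added after seeing the data, leaving out Nefl and Nefm, principal transcript lengths and marker sums without their highest gene. The counting was tested on simulated data. Software was edgeR 4.0.16 under R 4.3.3, and scipy 1.17.1, pandas 2.3.3, numpy 2.4.6 and matplotlib 3.10.9 under Python 3.11.15.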

Additional observations from a re-analysis of the deposited data

How the results depend on the processing

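No paired analysis was possible because each condition has 1 library. Of 108 ratios of single genes under other scalings and pseudocounts, 95 stayed within their counting interval, 13 moved beyond it, and 0 of those past 2-fold changed sign. Scaling to the housekeeping list gave 1 gene (Nefl) at least 2-fold lower in KO, with a KO median log2 ratio of -0.36 over the 9 genes, and scaling to Gapdh also gave 1, with -0.35, where the shift of all genes was -0.09 and -0.08. At a 1.5-fold threshold 1 gene was lower in OE (Nefh) and 3 in KO (Nes, Nefl and Nefm), where 15.9% of all genes were higher and 8.33% lower in OE, and 5.26% higher and 8.58% lower in KO. At 3-fold 4 genes were higher in OE, and these shares were 5.54% and 0.884% in OE, and 1.16% and 0.876% in KO. The share of genes 2-fold higher in KO was 4.77% with a minimum mean of 10, 0.981% with 200 and 7.67% with none, and that of genes 2-fold lower in KO was 2.01% with 200. Without Nefl and Nefm, 3 genes were 2-fold higher in OE, and the median log2 ratio was -0.20 in OE, its sign reversed by leaving out 2 of the 5 higher genes, and -0.17 in KO. The KO ratios of Nefl and Nefm over their neighbours' median were 0.922 and 0.994 within 5 Mb and 0.912 and 0.983 with a minimum mean of 50. No library of a condition can be left out, so differences between cultures of 1 condition are unknown. The Nefm values rest on 63 reads in KO and 121 in WT.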
